A study of Homo sapiens with 2 samples.

Results

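The kallikrein-related peptidases KLK5 to KLK14 are 10 neighbouring genes of the kallikrein cluster on the long arm of chromosome 19. They were measured in Ca9-22, an established cell line from a human oral squamous cell carcinoma (OSCC), after lentiviral delivery of the long noncoding RNA DLEU1 or of an empty control vector. Members were chosen by name, as every probe that was not a control and whose gene name was 1 of these 10 symbols, which gave 10 of the 43317 gene names and 13 of the 58201 probes of the array. The rule itself uses names and no measured value, although the genes were picked with earlier results of these data known.

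Each group was 1 RNA sample on 1 one-colour Agilent array, so there were 2 arrays and no replicate. Both groups were the same line in medium with 10% serum, both had received a lentivirus, and both had been kept in 6 mg/ml of the antibiotic blasticidin for 2 weeks. The groups therefore differed by label only in what the vector carried, and each was a single selected culture, for which integration sites and clonal composition were not given in the sources used here. With 1 array a group there is no spread between cultures, so no test was made, no p-value is given, and every difference below compares these 2 RNA samples. The comparison asks which transcripts differed when DLEU1 was expressed from the vector.

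Kallikrein-related peptidases are secreted serine proteases that are made as inactive zymogens and are switched on when a short propeptide is cut off. In stratified epithelia they form a cascade in which active members cleave the zymogens of others, and their best known work is the shedding of the outermost cells through cleavage of the proteins of cell-to-cell junctions. Inhibitors secreted by the same epithelium hold the cascade in check. KLK5, KLK7 and KLK14 are the members most studied in epidermis, and KLK6, KLK8, KLK10 and KLK11 are often measured in carcinomas.

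The probes are DNA strands of 60 bases, and a value belongs to the stretch of transcript that its probe matches. The first 30 bases of 5 of them are shown here because the results turn on them, for the gene with the largest difference measured on both arrays, the gene with the smallest, the gene with a high signal on both arrays, the gene measured on 10 spots, and a gene detected only under the DLEU1 vector. All 5 lie on the minus strand of chromosome 19, at the hg19 positions of the array files.
KLK5, chr19:51446866-51446925: accaagtggatccaggaaaccatccaggcc
KLK7, chr19:51480677-51480736: gacgccgatgacctatgaagtcaaatttga
KLK8, chr19:51499316-51499375: ctataccaacatctgccgctacctggactg
KLK11, chr19:51525626-51525685: tcctggactacaggagatgctgtcacttaa
KLK12, chr19:51532360-51532419: cccttctaagacccacgagcggggtgagag
The 13 member probes and those of the other kallikrein genes made 178 pairs of probes from different genes, and the longest run of bases that any pair shared was 9, between KLK5 and KLK1 and between KLK5 and KLK15. No pair of these probes was thus near-identical in sequence.

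Levels are given as the log2 of the processed signal minus the 75th percentile of the array, and a difference is the level under the DLEU1 vector minus the level under the control vector. Detected means that the scanner software put most spots of the probe in its class well above background. Where several probes of a gene were detected on both arrays, the brightest stood for the gene. Detection was similar on the arrays, with 47.6% of probes under the control vector and 48.1% under the DLEU1 vector, and 20246 gene names were detected on both. The median difference of these genes was -0.07. DLEU1 itself, the gene carried by the vector, rose from 3.17 to 5.91 with its brightest probe, a difference of 2.74, or 6.67-fold. The other DLEU1 probes, which the files place on another transcript, differed by 0.85 and 0.54. All 13 listed epithelial markers, squamous and more general, were detected on both arrays. Of these, 8 were at least 2-fold higher with the DLEU1 vector, against 9.18% of the 20246 gene names. The median difference of the 13 was 1.37. The range was from -0.78 for the adhesion gene EPCAM, which is not particular to squamous epithelium, to 3.09 for the keratin gene KRT17. COL17A1 and ITGB4, of the junction with the basement membrane, differed by -0.24 and -0.09.

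Of the 10 kallikrein genes, 6 were detected on both arrays (KLK5, KLK6, KLK7, KLK8, KLK9 and KLK11), and all 6 were higher with the DLEU1 vector, as were 45.8% of the 20246 gene names detected on both arrays, by any amount. KLK10 and KLK12 were detected only under the DLEU1 vector, and KLK13 and KLK14 on neither array. Of the 6 genes, 5 were at least 2-fold higher and 0 lower by as much, whereas 9.18% of the gene names detected on both arrays reached 2-fold upward and 9.78% downward. Counted by probe, 6 of the 7 probes detected on both arrays were at least 2-fold higher, against 8.98% of the 26279 array probes so detected. A 4-fold difference was reached by 4 of the 6, against 2.17% of the gene names detected on both arrays. The median difference of the 6 was 2.37, or 5.19-fold, with a range of 0.66 to 3.03.

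**Figure D1:**
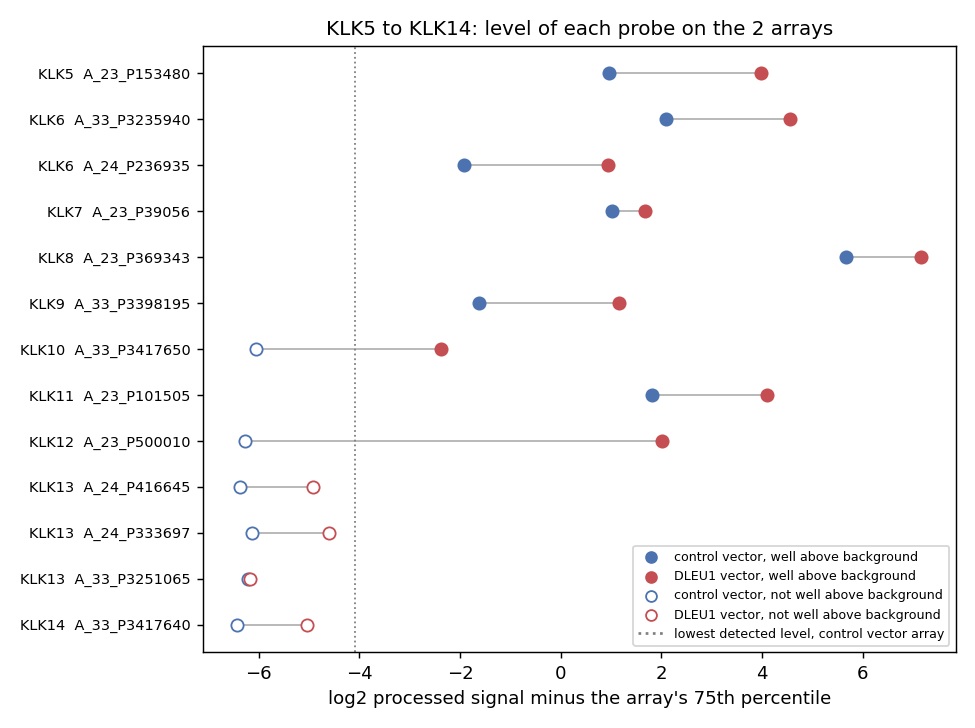
Level of each of the 13 probes under the control vector (blue) and the DLEU1 vector (red), as log2 processed signal minus the 75th percentile of the array, with filled points well above background and open points not. Each line joins the 2 arrays for 1 probe, and the 7 probes with both points filled all lie further right with the DLEU1 vector.

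KLK5 and KLK14 are trypsin-like members that can activate other kallikreins, and KLK5 can also activate itself. The KLK5 signal was 469.8 under the control vector and 3729 under the DLEU1 vector. KLK5 therefore rose by 3.03 on the log2 scale, or 8.15-fold, and 120 gene names had a larger difference. The KLK14 signal was 2.81 and 7.17, and it was not well above background on either array, so no fold is given for it. The 3 KLK13 probes were in the same position. Their signals were 2.93, 3.44 and 3.27 under the control vector, and in the same order 7.81, 9.69 and 3.26 under the DLEU1 vector. The software marked the KLK14 probe and the first 2 KLK13 probes as positive and significant on the DLEU1 vector array, a looser call than well above background, and none of the 4 on the control vector array.

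KLK7 is the chymotrypsin-like protease of the cascade and cleaves corneodesmosin. Its signal was 492 under the control vector and 756 under the DLEU1 vector. The difference of 0.66, or 1.58-fold, was the smallest of the 6 and stayed under 2-fold, and 16.3% of the gene names detected on both arrays had a larger one. The scanner software gives a signal error of 10.0% on each array, and combining these puts the error of this difference at 0.204. KLK5, KLK8 and KLK11 had the same 0.204, so it is not particular to KLK7. It does not cover differences between cultures.

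KLK6 and KLK8 are trypsin-like proteases also known from the nervous system, as neurosin and neuropsin, and KLK8 is made in epidermis too. KLK6 had 2 probes, and both were higher with the DLEU1 vector. The signal of the first, at chr19:51461888-51461947, went from 1037 to 5548, a difference of 2.46 or 5.49-fold. The signal of the second, at chr19:51466725-51466784, went from 63.5 to 454, a difference of 2.88. Both KLK6 probes thus gave more than a 4-fold difference. The KLK8 signal was high on both arrays, with 12362 and 33826, and KLK8 rose by 1.49, or 2.81-fold. No member spot was saturated, so this value is not capped by the scanner.

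KLK9, a little studied member, lies next to KLK8. Its signal was 78.6 under the control vector and 529 under the DLEU1 vector, so that KLK9 rose by 2.79, or 6.91-fold. The difference was 2.06 with the normexp background correction, which was run with an offset of 50 added to every signal. Such an offset makes the differences of dim probes smaller. KLK10 carries the older name normal epithelial cell-specific 1. Its signal of 3.62 on the control vector array was not well above background, and that on the DLEU1 vector array was 45.1. The fold is therefore a bound, taken against the lowest level that was well above background on the control vector array, and KLK10 was at least 3.26-fold higher. With normexp and its offset this bound was 0.59 on the log2 scale, which is under 2-fold.

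KLK11 is a trypsin-like member expressed in many glandular and stratified epithelia. Its probe was printed on 10 spots, which gives the reading error within an array directly. Over the 9 spots kept on both arrays the control vector signals lay between 820.5 and 881, with a median of 853.6, and the DLEU1 vector signals between 3940 and 4220, with a median of 4050. The spots of the arrays did not overlap, but they read 1 RNA sample a group. The share of the other probes with 10 spots that also separated was not counted. The difference was 2.29 ± 0.0549 (SD over the 9 spots, which are technical) and ranged from 2.21 to 2.39, or 4.90-fold for the gene. The remaining spot was marked an outlier on the DLEU1 vector array and lay in a dimmed strip of that array that held 265 of its 60901 spots. It read 840.4 and 3535, a difference of 2.11, and it was the only 1 of the 22 member spots in that strip. Over the 282 probes of the array with 10 spots, the typical SD of a difference between spots was 0.0778.

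**Figure D2:**
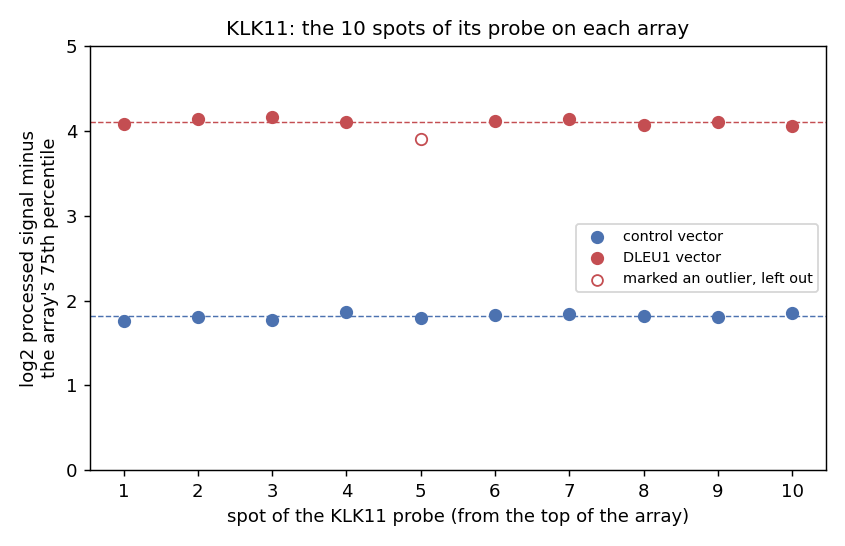
Level of each of the 10 spots of the KLK11 probe under the control vector (blue) and the DLEU1 vector (red), as log2 processed signal minus the 75th percentile of the array, with dashed lines at the means of the 9 spots kept. The open point is the spot marked an outlier, and the 2 sets of spots lie 2.29 apart with an SD of 0.0549.

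KLK12, a trypsin-like member, had the widest gap. Its signal was 3.12 with the control vector, not well above background, and 945 with the DLEU1 vector. KLK12 was at least 68.3-fold higher by the same bound, which was 6.09 on the log2 scale and 3.82 with normexp. With the bounds counted, 7 of the 8 members detected on at least 1 array were at least 2-fold higher, against 10.2% of the 22543 gene names detected on at least 1 array. The direction of the KLK10 and KLK12 bounds follows from their detection with the DLEU1 vector only, so they add no separate support to the 5 of 6 without them. Detection with the DLEU1 vector only was found for 2 of the 10 members, against 2.86% of all 43317 gene names. No member was detected with the control vector only.

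The members lie between 51446866 and 51581312 of chromosome 19 in hg19, a stretch of 134 kb. The 6 other kallikrein genes of the cluster continue it on the KLK5 side, and the classical members KLK1, KLK2 and KLK3 are among them. KLK4, an enamel protease next to KLK5, went from a signal of 26.9 to 74.8, a difference of 1.51 or 2.85-fold, and with normexp this was 0.65. KLK1, or tissue kallikrein, had signals of 100.9 and 98.4 and a difference of 0.00. KLK2 had signals of 24.02 and 24.04 and a difference of 0.04. The sign of the KLK1 and KLK2 differences depended on the scaling, with ranges of -0.34 to 0.11 and -0.30 to 0.15 over the settings tried. KLK3, KLK15 and the pseudogene KLKP1 were detected on neither array. Thus 1 of the 3 detected genes of this group, the one beside KLK5, was at least 2-fold higher, against 9.18% of gene names.

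Beyond the cluster, 29 gene names had a probe within 300 kb of it, and 13 of them were detected on both arrays. None of the 13 was at least 2-fold higher (0, against the same 9.18% of the gene names detected on both arrays). At least 2-fold lower were 2 of the 13, against 9.78% of those gene names, and the median difference of the 13 was -0.36. The range was from -2.36 for C19orf48 to 0.70 for SYT3. On the KLK1 side the median of 8 genes was -0.19, and on the KLK14 side the median of 5 genes was -0.58. The lower genes were C19orf48, whose level went from 5.21 to 2.85, and SNAR-F, whose difference was -1.26 and whose probe may also read other near-identical copies of that small RNA. SNORD88C and the unnamed transcript ENST00000562076 were detected with the control vector only, and were at least 2.85-fold and at least 2.10-fold lower with the DLEU1 vector. In gene order, the genes that were at least 2-fold higher, bounds included, ran from KLK4 to KLK12, with KLK7 as the exception within that stretch.

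**Figure D3:**
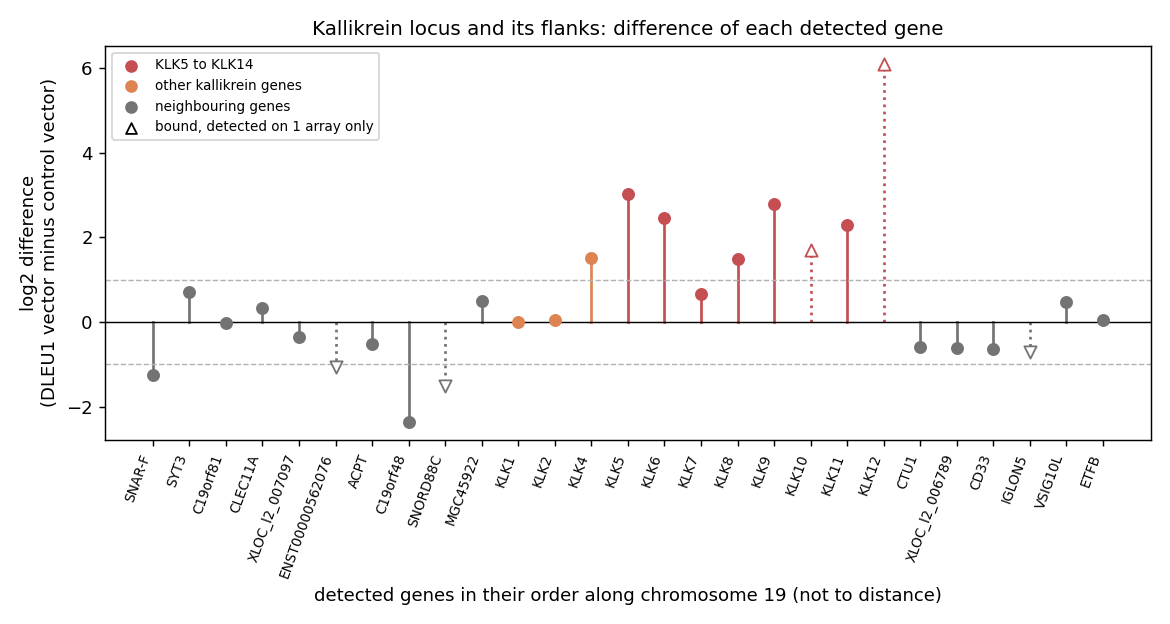
Difference of each detected gene, DLEU1 vector minus control vector on the log2 scale, for KLK5 to KLK14 (red), the other kallikrein genes (orange) and genes within 300 kb (grey), in their order on chromosome 19 and not to distance. Triangles are bounds for genes detected on 1 array only, dashed lines mark 2-fold, and the points above the upper line are KLK4 to KLK12 without KLK7.

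The letters before the gene starts are shown for 3 members that were more than 4-fold higher with the DLEU1 vector. RefSeq (GRCh38.p14) windows of 300 bases, 250 before and 50 after a start, were at hand for 9 of the 10 members, with 16 windows in all. The 250 bases before the start are printed, on the minus strand and in the direction of transcription, with capitals at each GGGCGG or its reverse complement, the letters that factors of the SP and KLF family can bind.
KLK5, chr19:50953039-50953288: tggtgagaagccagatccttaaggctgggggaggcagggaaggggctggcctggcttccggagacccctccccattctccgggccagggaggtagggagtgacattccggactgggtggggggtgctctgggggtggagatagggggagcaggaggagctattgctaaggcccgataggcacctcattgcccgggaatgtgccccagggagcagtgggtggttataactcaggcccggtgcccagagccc
KLK6, chr19:50969592-50969841: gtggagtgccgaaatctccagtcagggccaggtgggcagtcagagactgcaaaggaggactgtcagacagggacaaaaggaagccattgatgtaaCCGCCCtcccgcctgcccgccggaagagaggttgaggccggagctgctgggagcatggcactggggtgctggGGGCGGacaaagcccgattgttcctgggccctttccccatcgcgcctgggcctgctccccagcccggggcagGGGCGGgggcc
KLK12, chr19:51035003-51035252: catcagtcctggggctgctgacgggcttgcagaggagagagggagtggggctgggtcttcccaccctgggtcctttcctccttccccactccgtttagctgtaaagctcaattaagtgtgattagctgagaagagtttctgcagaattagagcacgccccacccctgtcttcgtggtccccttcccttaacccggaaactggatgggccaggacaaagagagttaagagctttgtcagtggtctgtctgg
GGGCGG on either strand was in 10 of the 16 windows, from 6 of the 9 genes, against 45.0% of all 35116 windows. KLK6 had it 3 times, and KLK5 and KLK12 did not have it. Some windows of the same gene overlap, so the 16 are not separate observations. The other motifs were searched on both strands in the same way. The TATA box letters TATAAA were in 0 of the 16 windows, against 11.5% of all windows. The AP-1 letters TGANTCA were in 0, against 7.71%. The grainyhead letters AACCNGTT were in 0, against 1.73%, and the C/EBP letters TTGCGCAA in 0, against 0.151%. The core of the interferon-stimulated response element, written as GAAA followed after any 2 bases by another GAAA, was in 0, against 3.57%. The nuclear receptor letters AGGTCA were in 1 window, of KLK13, against 13.8%. The G and C content of the member windows was 54.3% to 70.7%, with a median of 61.8%, against 58.7% for all windows.

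Inhibitors of the cascade and of other epithelial proteases were measured with a list of 10 genes. Of these, 5 were detected on both arrays, 3 of the 5 were at least 2-fold higher and 0 lower by as much. Among all gene names detected on both arrays these shares were 9.18% and 9.78%. The median difference of the 5 was 1.59. SPINK5, which encodes the epidermal kallikrein inhibitor LEKTI, was detected with the DLEU1 vector only. Its brightest probe went from a signal of 15.2 to 387, so it was at least 26.2-fold higher by that probe. The other SPINK5 probes were also detected with the DLEU1 vector only, with lower bounds of 7.65-fold and 2.07-fold. A2ML1, a broad protease trap of epidermis, was at least 2.89-fold higher. PI3, which encodes the elastase inhibitor elafin, had the widest difference among those on both arrays, with signals of 87.1 and 2751 and a difference of 5.02, or 32.4-fold. SLPI, another inhibitor of elastase and of KLK7, was higher by 1.79, and SPINT1, which inhibits matriptase, by 1.59. SPINT2 and SPINK7 differed by 0.36 and 0.07, and a second, dimmer SPINK7 probe was detected with the DLEU1 vector only. SPINK6, SPINK9 and SERPINA12 were detected on neither array.

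Of 10 listed proteases and cofactors that can activate epidermal proteases, 6 were detected on both arrays, of which 3 rose at least 2-fold and 1 fell at least 2-fold. For all gene names detected on both arrays the shares were again 9.18% and 9.78%. The membrane serine proteases TMPRSS13 and TMPRSS4 were higher by 2.18 and 1.99, and PRSS8, or prostasin, by 1.13. ST14, which encodes matriptase, and TMPRSS11E differed by 0.29 and 0.23. PLAU, the urokinase that activates plasminogen, had signals of 392.8 and 155.2, and it fell by 1.30 on the log2 scale. The median of the 6 was 0.71, and TMPRSS11D, MEP1A, MEP1B and PLG were detected on neither array.

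A list of 10 genes held known or possible substrates of epidermal kallikreins, not all of them from the outer layers. Of these, 6 were detected on both arrays. At least 2-fold higher were 2 of the 6, against 9.18% of gene names detected on both arrays, and 0 were lower by as much, against 9.78%. FLG, which encodes the precursor of filaggrin, was higher by 3.52, or 11.5-fold, and its other probes were also more than 4-fold higher. TGM1, the transglutaminase of the cornified envelope, was higher by 2.49. CDSN, which encodes corneodesmosin of the outer junctions, was detected with the DLEU1 vector only, with signals of 3.16 and 1524, and was at least 110-fold higher. DSC1, a cadherin of those junctions, was at least 2.60-fold higher. COL17A1, LAMB3, F2RL1 (the receptor PAR2) and IL1B differed by -0.24, -0.31, -0.42 and -0.53. The median of the 6 was -0.28, and 0.57 with the bounds of CDSN and DSC1 counted. The middle values behind the -0.28 were those of COL17A1 and LAMB3, of the junction with the basement membrane and not of the outer layers. DSG1 and CAMP were detected on neither array.

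**Figure D4:**
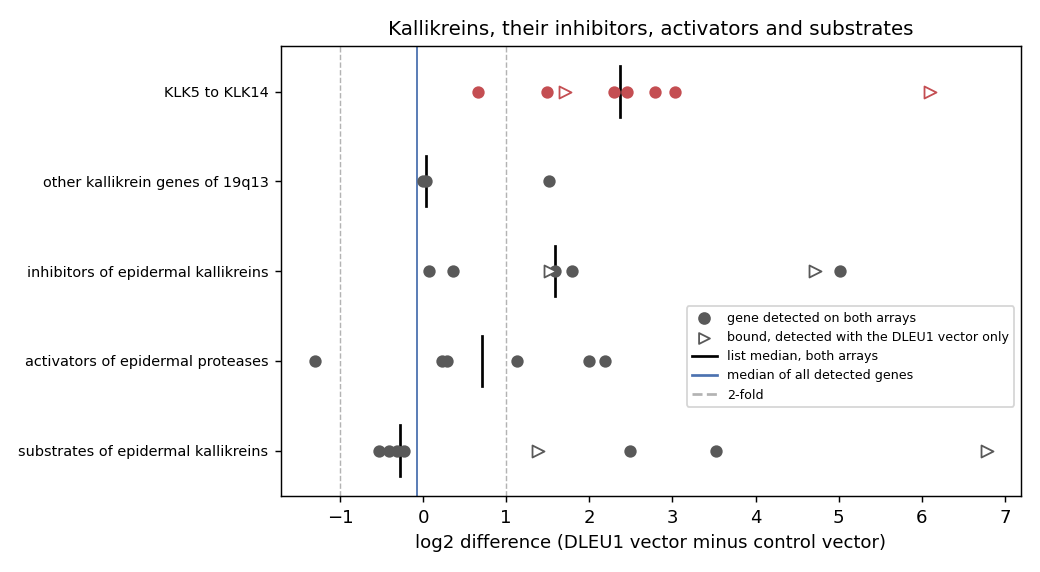
Difference of each gene, DLEU1 vector minus control vector on the log2 scale, for KLK5 to KLK14 (red) and 4 lists of related genes (grey), with black bars at the medians of genes detected on both arrays and a blue line at the median of all detected genes, -0.07. Open triangles are bounds for genes detected with the DLEU1 vector only, and the list medians from top to bottom are 2.37, 0.04, 1.59, 0.71 and -0.28.

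Markers of other cell types were listed for 16 genes, of which 14 had a probe and 7 were detected on both arrays. Their median difference was -0.31. COL1A1 and VWF were higher with the DLEU1 vector by 3.99 and 3.70, while COL1A2, DCN, PECAM1, CD3E, MLANA and GFAP were detected on neither array, and a second detected VWF probe had signals of 33.7 and 31.2. DES fell by 1.01 on the log2 scale. The signals of the 14 genes summed to 1224 under the control vector and 6385 under the DLEU1 vector, and without COL1A1 and VWF to 839.1 and 558.4. Those of the 13 epithelial markers summed to 293886 and 584680. The part of the genes of either list in the kallikrein differences was not tested. Fewer cells of a kind and less RNA per cell cannot be told apart in RNA from a whole culture.

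**Figure D5:**
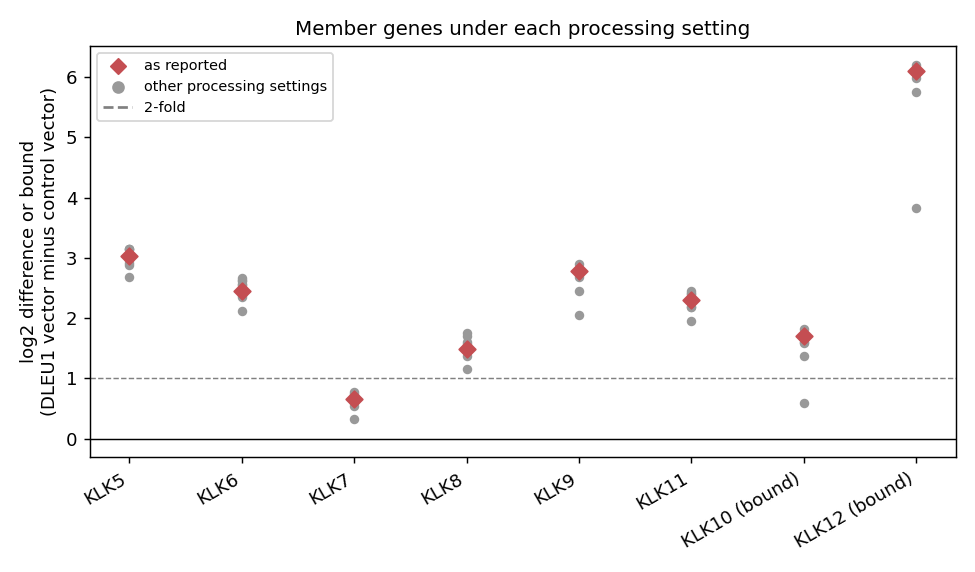
Difference, or bound for KLK10 and KLK12, of each detected member on the log2 scale as reported (red diamonds) and under the other processing settings tried (grey points), with a dashed line at 2-fold. All points lie above 0, which for the bounds follows from detection with the DLEU1 vector only. Changes of filter only repeat the reported difference. KLK7 lies under 2-fold in every setting with a range of 0.32 to 0.77, and the KLK10 bound falls under 2-fold with normexp.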

How the data were processed

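RNA of Ca9-22 cells with the DLEU1 vector and with the control vector was labelled with Cy3 from 100 ng and hybridised to 1 Agilent SurePrint G3 array each. The authors deposited intensity values of single spots. Per the file headers, Agilent Feature Extraction 10.7.3.1 had made them by background subtraction and detrending, with a surrogate value for dim spots, and a deposited series table held the same intensity values, rounded (within 0.497%). Control spots and the 84 and 103 spots that the software marked as outliers on the control and DLEU1 vector arrays were left out. The remaining signal was put on the log2 scale, averaged over the spots of each probe and scaled by taking off the 75th percentile of its array (7.92 and 7.88). No spot was saturated (0 on each array). Both arrays shared 1 slide and 1 scan, and their number limits the precision.

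A probe detected on 1 array was given a bound, taken against the lowest detected level of the dim array (-4.09 for the control vector, -4.04 for the DLEU1 vector) or its own level there if higher. Where a gene had only such probes, the largest bound stood for it. Calls were made at 2-fold. All 10 members were named, and genes of the other kallikrein, inhibitor, activator and substrate lists and neighbours were named where they differed at least 2-fold, at most 5 a list and direction. The marker genes named, and others within 2-fold, were chosen after their values were seen. No gene was named for likeness of pattern, since 2 arrays give 1 difference per gene. The members and lists were chosen with earlier results of these data known. Other settings covered scaling, background (normexp with an offset of 50 in limma 3.58.1 with R 4.3.3), filters, thresholds and the dimmed strip. Scripts in Python 3.11.15 with numpy 2.4.6 and pandas 2.3.3 were tested on simulated data. No hg19 annotation was used, so exons are not given for the probes.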

Additional observations from a re-analysis of the deposited data

How the results depend on the processing

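Of 111 member values under other settings, 0 fell below 0 and 69 moved by less than the spot SD. They include 11 bounds each for KLK10 and KLK12, whose upward direction follows from detection with the DLEU1 vector only. Other values could not move. A change of filter left the difference of each member detected on both arrays as it was, and the mean of the probes could change only KLK6. Such repeats count among the 0 and the 69 and are no separate check. Members called higher ranged from 4 of 6 (3-fold threshold, against 3.82% of gene names) to 9 of 10 (no filter on dim probes, against 9.77%). The 9 take in KLK13 and KLK14, which were well above background on neither array. A signal of at least 100 gave 4 of 5, against 7.27%. Called lower were 0 throughout. The medians of members, inhibitors, activators, substrates and neighbours were, in this order, 2.26, 1.47, 0.60, -0.39 and -0.47 with median scaling, 2.49, 1.70, 0.82, -0.16 and -0.25 with the percentile over detected probes, and 2.04, 1.25, 0.37, -0.61 and -0.70 with 8 spike-in probes. The first 4 were 2.52, 1.74, 0.88 and -0.11 with quantile normalization, 2.54, 1.74, 0.90 and -0.053 with loess, and 2.46, 1.79, 1.13 and -0.16 for probes positive and significant on both arrays. Probes detected on at least 1 array gave members 2.62, inhibitors 1.79, substrates 0.86 and neighbours -0.55. A signal of at least 100 gave members 2.29, inhibitors 0.97, activators 1.13 and neighbours -0.018. No filter gave activators 1.20, substrates -0.074 and neighbours -0.018. Normexp gave members 2.12 and neighbours -0.074, the mean of the probes 2.48 and -0.27, and the nearest 100 spots taken off gave activators 0.82 and neighbours -0.26. The causes were not tested.

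Over all genes, 1858 were called higher and 1981 lower, against 1099 and 3843 with spike-in scaling, which moved the median of all genes by -0.34, 1566 and 2449 with median scaling (-0.11), 2209 and 1576 with the percentile over detected probes (0.11), 1121 and 1413 with normexp, 4232 and 3807 with no filter, 1026 and 1433 at a signal of at least 100, and 2909 and 2829 for positive and significant probes. The member median minus that of all genes was 2.15 (normexp) to 2.69. No paired analysis was possible because each group had 1 array. Dim probes have only bounds.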
